A study of Mus musculus with 15 samples.

Results

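The 47 genes described here encode the proteins that load, fire and run DNA replication forks and that make the deoxynucleotides those forks use. They were taken by symbol from both count tables. Origin licensing and early assembly had 10 genes (ORC1, ORC2, ORC3, ORC5, ORC6, CDC6, CDT1, GMNN, MCM8, MCM10). The CMG helicase had 11 (MCM2 to MCM7, CDC45, GINS1 to GINS4). Polymerases and primase had 9 (POLA1, POLA2, PRIM1, PRIM2, POLD1, POLD2, POLD3, POLE, POLE2). The clamp, its loader and fork maturation had 9 (PCNA, RFC1 to RFC5, FEN1, LIG1, UHRF1). Single-strand binding had the 3 RPA genes, and deoxynucleotide synthesis had 5 (RRM1, RRM2, TYMS, TK1, DUT). All 47 stood on a single row in each table, and all 47 passed the filter on low counts, among 19051 genes tested of 56967 names used. The study sequenced the messenger RNA of an established breast carcinoma cell line, MDA-MB-468 by its label, in 5 groups of 3 libraries. The labels give the mouse as organism, but the tables carry human gene symbols, and they were read as human counts. The groups carried the first short hairpin RNA against SHCBP1 (labelled shSHCBP1_1), the second against SHCBP1 (labelled shSHCBP1_2), either of 2 hairpins against TMEM45A, or a control hairpin (NC). The tables number the shTMEM45A columns 4 and 2 where the sample labels have 1 and 2. The columns numbered 4 were therefore given to the first labelled set by elimination, and the sets are called set 4 and set 2. No other agent, allele or treatment is labelled, and every group, NC included, carried a hairpin. Nothing in the labels ties the libraries of a group to separate cultures. A p-value here reflects just the spread between libraries within groups, shared over all 5 groups in 1 fit. That spread may be technical.

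In dividing cells the origin recognition complex marks origins, and CDC6 and CDT1 use it to load the MCM2 to MCM7 ring as an inactive double hexamer, while geminin (GMNN) binds CDT1 and stops a repeat round of loading. CDC45 and the GINS complex then join the ring to form the active CMG helicase, primase with DNA polymerase alpha starts each strand, and polymerases epsilon and delta extend it on the PCNA clamp, which the RFC complex loads. RPA coats the exposed single strands, and ribonucleotide reductase, thymidylate synthase, thymidine kinase and dUTPase supply and clean the nucleotide pool. Many of these genes are transcribed together at the start of S phase by E2F factors, so they are widely read as marks of proliferation.

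Libraries held from 13780294 to 16484000 counts, so 3 counts were at most 0.218 CPM (the count divided by the library total, on a common scale). Levels below are TMM-scaled CPM. The 3 libraries of a group are given in the order of the columns. The mean level of the members over all 15 libraries ran from 18.5 CPM for PRIM1 to 657 CPM for MCM7, with a median of 95.7 CPM against 13.6 CPM for all genes tested. SHCBP1 was at 47.1 ± 1.24 CPM in shSHCBP1_1 and 44.3 ± 1.12 CPM in shSHCBP1_2, against 44.1 ± 2.53 CPM in NC (SD, n = 3 each). The targeted transcript was thus not detectably lower (adjusted p = 0.412 and 0.962). For that reason these 6 are named by their label throughout, as the libraries labelled shSHCBP1. Every adjusted p is from edgeR's quasi-likelihood test with Benjamini-Hochberg adjustment over all genes. TMEM45A was at 17.8 ± 1.86 CPM in set 4 and 19.4 ± 0.761 CPM in set 2, against 26.6 ± 2.09 CPM in NC (adjusted p = 8.8e-06 and 0.000181). The shTMEM45A libraries stand in another table than NC and the libraries labelled shSHCBP1, so for any difference between shTMEM45A and the other groups the hairpin and the table cannot be told apart. Of 15 listed basal breast line markers, 8 had enough counts to be tested and KRT5, KRT6A, KRT6B, KRT16 and TP63 were at 0 in all 5 groups. Others of that list were expressed, with 8 genes at a mean over 1 CPM in set 4 and set 2 and 6 in each other group. The list's summed levels were 121 to 133 CPM in shSHCBP1_1, 121 to 129 CPM in shSHCBP1_2, 121 to 137 CPM in set 4, 104 to 115 CPM in set 2 and 122 to 126 CPM in NC. All 10 of a list of neurofilament and embryonic kidney line genes were tested. Their summed levels were 706 to 713 CPM in shSHCBP1_1, 646 to 666 CPM in shSHCBP1_2, 737 to 761 CPM in set 4, 727 to 739 CPM in set 2 and 726 to 737 CPM in NC. The cells are therefore described by their hairpin labels only. Of 11 epithelial markers 7 were tested, with summed levels of 155 to 170 CPM in shSHCBP1_1, 160 to 164 CPM in shSHCBP1_2, 311 to 352 CPM in set 4 and 324 to 358 CPM in set 2, against 145 to 147 CPM in NC. Of 8 immune markers 3 were tested, and PTPRC and MS4A1 were at 0 in all groups, with sums of 6.04 to 8.17 CPM in shSHCBP1_1, 7.92 to 9.2 CPM in shSHCBP1_2, 10.5 to 15 CPM in set 4 and 16.1 to 17.1 CPM in set 2, against 6.16 to 7.5 CPM in NC. Of 9 stromal markers 3 were tested, FAP being at 0 in all groups, and their sums were 47.7 to 54.9 CPM in shSHCBP1_1, 49.8 to 52.1 CPM in shSHCBP1_2, 30.4 to 36.2 CPM in set 4 and 31.8 to 33.9 CPM in set 2, against 47.6 to 50.5 CPM in NC. The part of such cells in the results was not tested. In these bulk libraries, fewer cells in S phase and less RNA of these genes per cell cannot be told apart.

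Set against NC, the members changed less in the libraries labelled shSHCBP1 than in the shTMEM45A libraries. By the mean of both shSHCBP1 sets, 7 members were higher and 18 lower at an adjusted p under 0.05, and 0 of them changed by more than 2-fold, against 3.12% of all genes. That is 14.9% of the members higher, 38.3% lower and 53.2% in either direction, against 15.2%, 15.9% and 31.1% of all genes tested. Most members are well expressed, and among the 8456 genes at or above the lowest member's mean level 17.3% were called higher and 28.9% lower, 46.2% in all. By the mean of both shTMEM45A sets, 18 members were higher and 24 lower. Of the 47 members, 11 changed by more than 2-fold, a smaller share than the 40.7% of all genes. There the background was high, with 78.6% of all genes called, 37.3% higher and 41.3% lower, or 41.7%, 46.6% and in all 88.3% among genes at or above the lowest member's level. The share of members called, 89.4%, therefore says little about them. Both comparisons use the same NC libraries. The libraries of the 2 sides did not overlap for 33.6% of all genes tested in the shSHCBP1 comparison and 67.8% in the shTMEM45A one. Of the 47 members, 24 overlapped with NC in the former and 6 in the latter. A lack of overlap with NC is therefore common in the shTMEM45A libraries.

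Single hairpins gave 4 members higher and 14 lower in shSHCBP1_1, against 9.34% and 10.5% of all genes (19.9% in either direction). There were 9 higher and 16 lower in shSHCBP1_2, against 15.6% and 15.4% (31.1%). They gave 19 higher and 25 lower in set 4, against 35.6% and 38.9% (74.4%). In set 2 there were 17 higher and 25 lower, against 36.1% and 39.8% (75.9%). The 4 comparisons share the NC libraries.

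**Figure D1:**
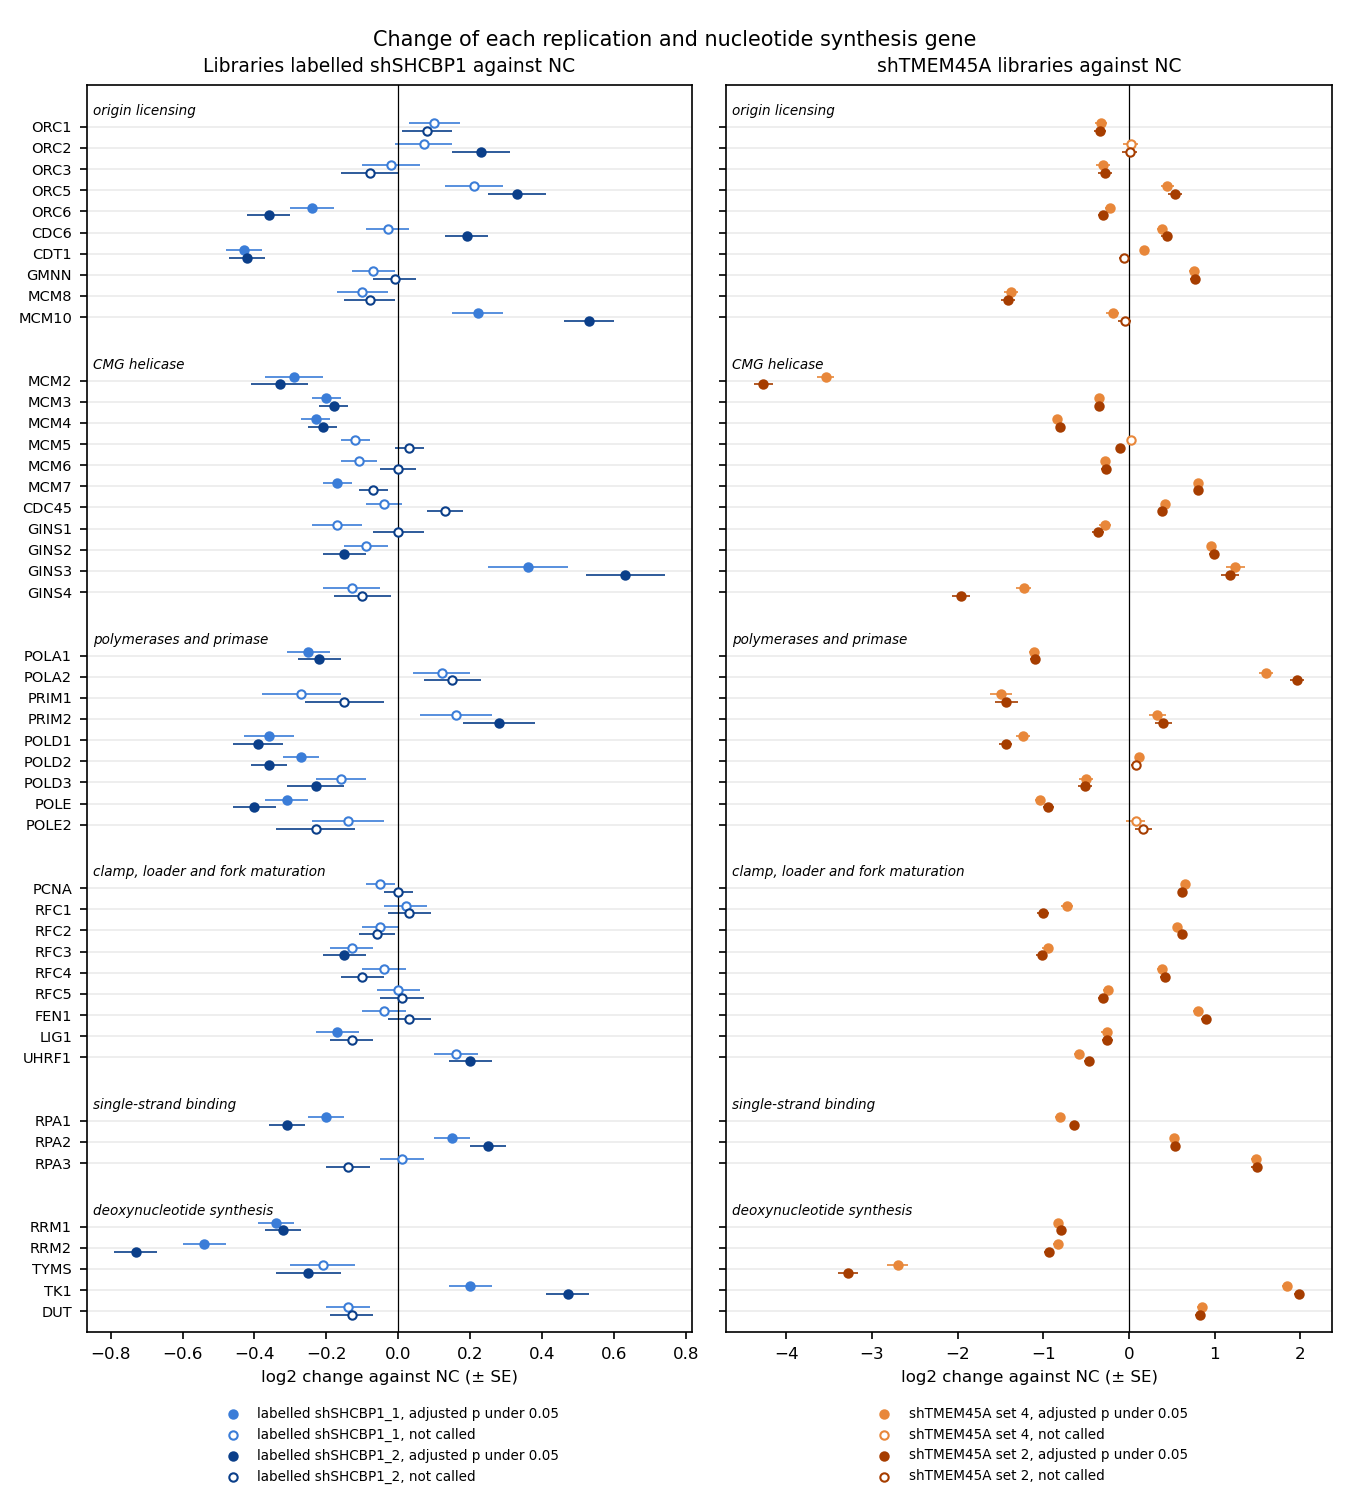
Log2 change of each of the 47 genes against NC, with its standard error, in the libraries labelled shSHCBP1_1 and shSHCBP1_2 (left) and in shTMEM45A sets 4 and 2 (right); the 2 horizontal scales differ. Filled points passed an adjusted p of 0.05. On the left every point lies between -0.73 and 0.63, and on the right MCM2 reaches -4.27 and TK1 reaches 1.99.

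The direction of the small changes in the libraries labelled shSHCBP1 depended on how libraries were scaled. By the mean of both sets, RLE scaling left 5 members higher and 27 lower, whereas 17 were higher and 7 lower by total counts. Of all calls, 28% were higher under TMM, 15.6% under RLE and 70.8% under total counts. Over all genes the median log2 change moved likewise: it was 0.01 under TMM, -0.06 under RLE and 0.16 under total counts. Relative to that median, the members' median was -0.10 under TMM, -0.10 under RLE and -0.09 under total counts. By the mean of both sets, calls of 12 members held under every scaling, filter, test and left-out library tried: CDT1, ORC6, POLD1, POLD2, POLE, RRM1 and RRM2 were lower, and GINS3, MCM10, ORC5, RPA2 and TK1 higher. In shSHCBP1_2 alone 13 of 25 calls held, those 12 genes among them. Only 5 of 18 held in shSHCBP1_1 alone, those of CDT1, POLD1, POLE, RRM1 and RRM2. ORC5 was not called there (edgeR adjusted p = 0.063). By the mean of both shTMEM45A sets 40 of the 42 calls held in the same way, and the exceptions were POLD2 and PRIM2.

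**Figure D2:**
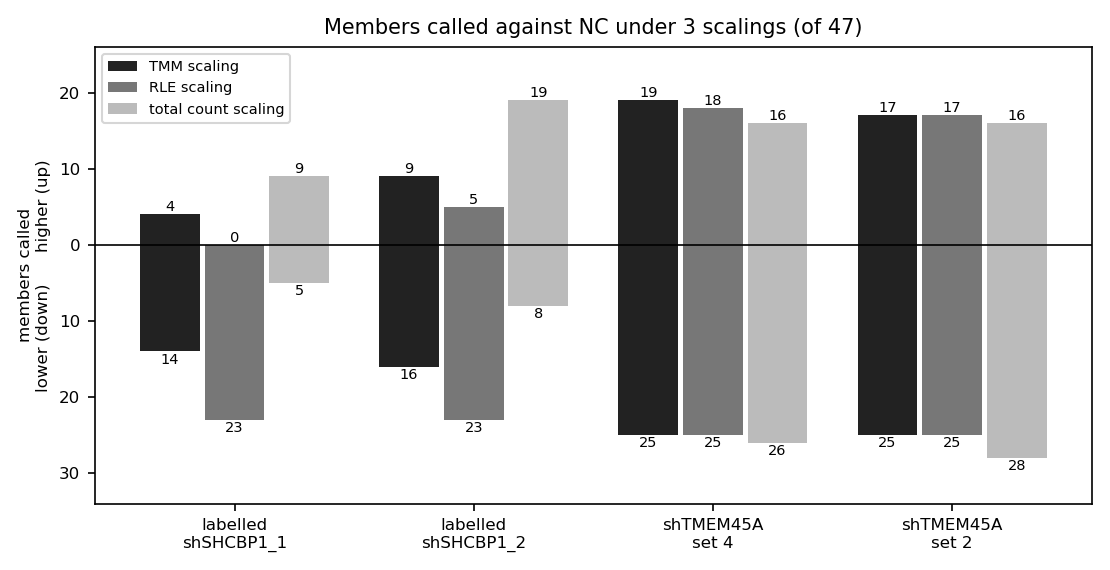
Number of the 47 genes called higher (up) and lower (down) against NC in each hairpin set under 3 ways of scaling the libraries. In the libraries labelled shSHCBP1_1 the split is 4 higher and 14 lower with TMM, 0 higher and 23 lower with RLE, and 9 higher and 5 lower by total counts, while in shTMEM45A set 4 it stays between 16 and 19 higher and between 25 and 26 lower.

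Among the licensing genes, CDT1 fell and MCM10 rose in the libraries labelled shSHCBP1. CDT1, which brings the MCM ring to origins, was at 382, 384 and 393 CPM in shSHCBP1_1 and 390.4, 386 and 391 CPM in shSHCBP1_2, against 505, 514 and 540.4 CPM in NC. All 6 libraries lay below all 3 NC libraries, a log2 change of -0.42 (SE 0.04, adjusted p = 3.03e-09). ORC6, the smallest subunit of the origin recognition complex, was at 119.6, 124 and 121 CPM and 111, 114 and 112 CPM in these sets, against 146, 145 and 142 CPM in NC. This was a change of -0.30 (SE 0.05, adjusted p = 1.14e-05), again with no overlap, as for 33.6% of all genes tested. MCM10, which is needed to activate the loaded helicase and is not a ring subunit, was at 64.6, 61.5 and 61 CPM in shSHCBP1_1 and 77.2, 77 and 77.2 CPM in shSHCBP1_2, against 56.3, 51.7 and 52.2 CPM in NC. Its log2 change was 0.38 (SE 0.06, adjusted p = 3.66e-05). For MCM10 the 3 groups were fully separated, with the second hairpin highest, the first between and NC lowest. The 2 sets did not overlap for 24.5% of all genes tested. In shSHCBP1_1 alone the MCM10 call was lost, for example, under RLE scaling (0.16, adjusted p = 0.131) and with DESeq2's Wald test (0.16, adjusted p = 0.148). It was also lost there without NC replicate 2 (0.20, adjusted p = 0.12) or 3 (0.21, adjusted p = 0.095). By the mean of both sets ORC5 rose by 0.27 (SE 0.07, adjusted p = 0.00338), and the other 6 licensing genes, with log2 changes of -0.09 to 0.15, were not called. Under TMM 2 of the 10 were higher and 2 lower, against 15.2% and 15.9% of all genes. Under RLE 2 of the 10 were higher and 3 lower, and under total counts 5 and 2.

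Licensing genes moved in both directions in the shTMEM45A libraries, 3 higher and 4 lower, or 3 and 7 under total counts. Under TMM 37.3% of all genes were higher and 41.3% lower there. MCM8, a helicase of the MCM family that acts with MCM9 in recombination repair, fell most, to 29.2, 31.4 and 35.1 CPM in set 4 and 31.6, 30.6 and 31.3 CPM in set 2, against 81.4, 87 and 79.8 CPM in NC. That was 2.63-fold lower, a log2 change of -1.39 (SE 0.06, adjusted p = 1.08e-18). GMNN, the inhibitor of CDT1, was at 121, 123 and 131 CPM in set 4 and 119, 128 and 133 CPM in set 2, against 75.9, 74.7 and 71.3 CPM in NC. It was 1.7-fold higher, a log2 change of 0.76 (SE 0.05, adjusted p = 1.98e-14), and stood at -0.19 once the trend on transcript length described further on was subtracted. ORC5 was at 38.3, 36.6 and 38.9 CPM and 37.5, 40.9 and 43.1 CPM in the 2 sets, against 28.3, 28.8 and 26.5 CPM in NC (log2 change 0.49, SE 0.07, adjusted p = 2.16e-07). For all 3 genes the 6 shTMEM45A libraries and the NC libraries did not overlap, as was so for 67.8% of all genes tested. CDC6, the other loading factor, rose by 0.42 (SE 0.05, adjusted p = 3.9e-08). Subunits of the origin recognition complex did not share a direction: ORC1 changed by -0.33, ORC3 by -0.29 and ORC6 by -0.26, all called, whereas ORC2 at 0.01 was not called. CDT1 at 0.06 (SE 0.04, adjusted p = 0.206) and MCM10 at -0.12 (SE 0.07, adjusted p = 0.0951) did not pass.

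In the shTMEM45A libraries the helicase genes had the widest range of changes of the 6 roles, -3.90 to 1.21 on the log2 scale. MCM2, a subunit of the ring that also binds histones, was at 27.3, 29.5 and 37.9 CPM in set 4 and 25.9, 15.6 and 15.5 CPM in set 2, against 359, 356 and 382 CPM in NC. It was 15-fold lower, a log2 change of -3.90 (SE 0.08, adjusted p = 4.75e-27). For comparison, 5.9% of all genes tested had a fitted change beyond 8-fold lower in this comparison. The 5 other ring genes changed by less than 1 log2 unit. MCM4 was at 305, 298 and 309 CPM in set 4 and 318, 314 and 295 CPM in set 2, against 544, 546 and 540.1 CPM in NC, a change of -0.83 (SE 0.03, adjusted p = 1.11e-19). MCM3 and MCM6 changed by -0.35 and -0.27, both called, and MCM5 by -0.04 (SE 0.04, adjusted p = 0.375), which did not pass. MCM7 moved the other way, to 896, 921 and 908 CPM in set 4 and 921, 859.6 and 939 CPM in set 2, against 526, 493 and 533 CPM in NC (log2 change 0.81, SE 0.04, adjusted p = 1.53e-18). The changes of the 6 ring genes thus spanned 4.71 log2 units in the shTMEM45A libraries, against 0.26 in the libraries labelled shSHCBP1.

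**Figure D3:**
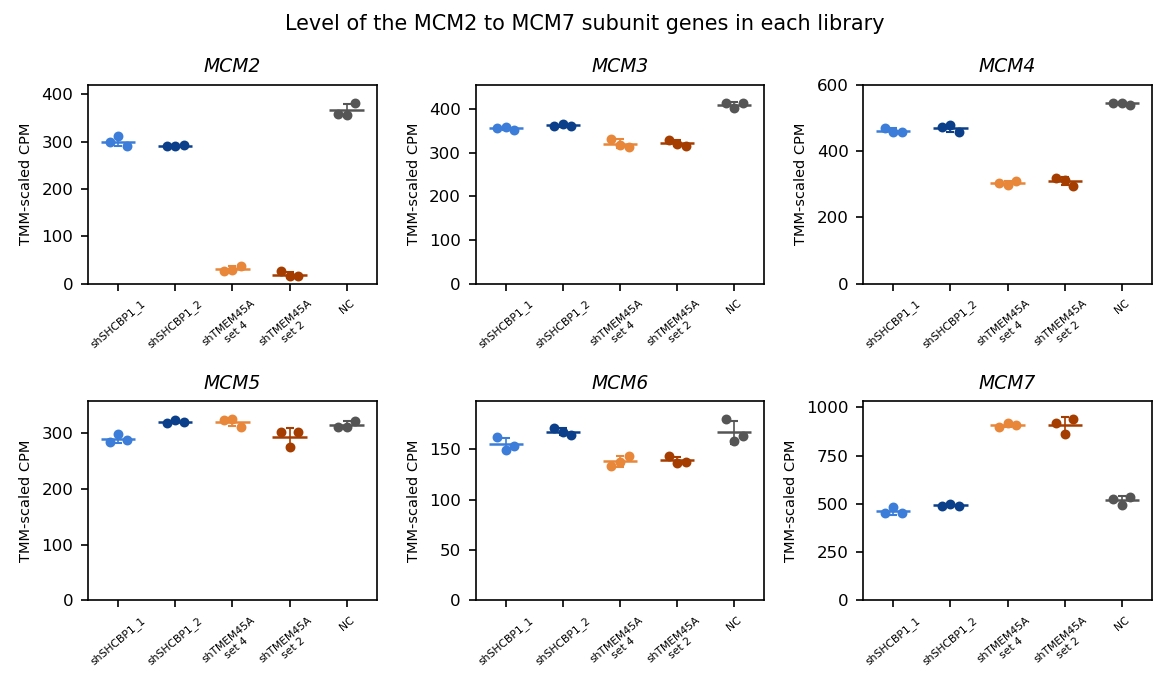
TMM-scaled CPM of the 6 MCM ring genes in each library; points are libraries, horizontal lines are group means and bars are SD (n = 3). MCM2 lies between 15.5 and 37.9 CPM in the 6 shTMEM45A libraries and between 356 and 382 CPM in NC, while MCM7 lies between 860 and 939 CPM in the shTMEM45A libraries, against 493 to 533 CPM in NC, and MCM5 overlaps with NC.

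The GINS genes, whose 4 products form a single tetramer, were 2 higher and 2 lower in the shTMEM45A libraries. Of all genes there, 37.3% were higher and 41.3% lower, so such a split says little about the complex. GINS4 was at 15.7, 16.1 and 17.9 CPM in set 4 and 10.1, 10.1 and 9.66 CPM in set 2, against 41.2, 38.7 and 36.4 CPM in NC. That was 3.02-fold lower, a log2 change of -1.59 (SE 0.08, adjusted p = 6.49e-18). GINS3 was at 28.7, 27.7 and 34 CPM in set 4 and 30.4, 29.6 and 26.7 CPM in set 2, against 13.7, 11.3 and 13.3 CPM in NC. That was 2.31-fold higher (log2 change 1.21, SE 0.09, adjusted p = 8.05e-13). Both genes were free of overlap between the groups, as were 67.8% of all genes tested. GINS2 rose by 0.98 (SE 0.05, adjusted p = 9.97e-18) and GINS1 fell by 0.32 on the log2 scale (adjusted p = 3.26e-05). CDC45, which joins GINS on the ring, rose by 0.40 (SE 0.04, adjusted p = 1.81e-09).

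In the libraries labelled shSHCBP1 the helicase genes were 1 higher and 4 lower of 11, against 15.2% and 15.9% of all genes. Among genes at or above the lowest member's level the shares were 17.3% and 28.9%. GINS3 was the gene that rose, at 15.8, 17.4 and 15.9 CPM in shSHCBP1_1 and 19.3, 19.9 and 20.1 CPM in shSHCBP1_2, against the NC values above, a change of 0.49 (SE 0.10, adjusted p = 0.000181). MCM2 was at 299, 311 and 291 CPM in shSHCBP1_1 and 290.4, 291 and 294 CPM in shSHCBP1_2, a change of -0.31 (SE 0.07, adjusted p = 0.00147). MCM4 was at 469, 458 and 459 CPM and 472, 478 and 458 CPM in these sets (log2 change -0.22, SE 0.03, adjusted p = 7.96e-06). Every one of these libraries stood apart from NC for all 3 genes, MCM2 and MCM4 below it and GINS3 above it. The same was so for 33.6% of all genes tested. MCM3 at -0.19 (SE 0.03, adjusted p = 7.61e-05) and MCM7 at -0.12 (SE 0.04, adjusted p = 0.0123) were lower too, and MCM7 did not pass without NC replicate 1 (-0.11, adjusted p = 0.0719) or 3 (-0.09, adjusted p = 0.123). The calls of MCM2 and MCM4 were lost under total-count scaling, with log2 changes of -0.15, adjusted p = 0.0939, and -0.07, adjusted p = 0.128. As a role, the helicase genes were 1 higher and 9 lower under RLE and 3 higher and 0 lower under total counts, with their median minus that of all genes at -0.12 each time.

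Of 9 polymerase and primase genes, 5 were lower and 1 higher in the libraries labelled shSHCBP1, where 15.9% of all genes were lower, or 28.9% of those at or above the lowest member's level. POLD1, the catalytic subunit of polymerase delta, was at 195, 202 and 187 CPM in shSHCBP1_1 and 188, 195 and 189.6 CPM in shSHCBP1_2, against 245, 247 and 259.9 CPM in NC (log2 change -0.38, SE 0.06, adjusted p = 2.69e-05). POLE, the catalytic subunit of polymerase epsilon, was at 248, 238 and 237 CPM and 211, 227 and 239 CPM, against 292, 301 and 302 CPM in NC (log2 change -0.35, SE 0.05, adjusted p = 2.74e-06). POLD2, which joins the parts of polymerase delta, was at 246, 262 and 239 CPM and 238, 235 and 226 CPM, against 309, 291 and 299 CPM in NC (log2 change -0.32, SE 0.04, adjusted p = 7.92e-07). None of these libraries reached the lowest NC value of the same gene. A lack of overlap with NC held for 33.6% of all genes tested. POLA1 at -0.23 (SE 0.05, adjusted p = 0.000649) and POLD3 at -0.19 (SE 0.06, adjusted p = 0.0234) were also lower, and PRIM2 at 0.22 (SE 0.08, adjusted p = 0.0464) was higher. The call of POLD3 was lost without any 1 of 5 libraries (NC replicates 1 and 2, shSHCBP1_1 replicate 2, shSHCBP1_2 replicates 1 and 2), with log2 changes of -0.19 to -0.16 and adjusted p of 0.0537 to 0.127. The call of PRIM2 was lost without any 1 of 7 of the 9 libraries, all but NC replicate 2 and shSHCBP1_1 replicate 2, with changes of 0.17 to 0.23 and adjusted p of 0.0589 to 0.173. The counts were 0 higher and 7 lower under RLE and 2 higher and 3 lower under total counts, with the role's median minus that of all genes at -0.22 under all 3 scalings.

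The same role held large opposite changes in the shTMEM45A libraries, 3 higher and 5 lower, or 1 and 6 under total counts. All genes there were 37.3% higher and 41.3% lower under TMM. POLA2, the B subunit of DNA polymerase alpha, was at 81.1, 90.9 and 80.6 CPM in set 4 and 107, 98.8 and 118 CPM in set 2, against 25.7, 27.7 and 29.8 CPM in NC. It was 3.43-fold higher, a log2 change of 1.78 (SE 0.07, adjusted p = 4.08e-20), while POLA1, the catalytic subunit of the same enzyme, changed by -1.10 (SE 0.05, adjusted p = 2.59e-18). PRIM1, the catalytic primase subunit, was at 10.5, 10.8 and 7.25 CPM in set 4 and 10.9, 10.0 and 8.94 CPM in set 2, against 28.1, 29.3 and 23 CPM in NC (log2 change -1.46, SE 0.10, adjusted p = 8.57e-14). Its partner PRIM2 changed by 0.37 (SE 0.08, adjusted p = 0.000273). Within this 4-subunit enzyme, therefore, 2 genes rose and 2 fell, although the rise of PRIM2 was lost under total-count scaling (0.17, adjusted p = 0.0608). POLD1 was at 119, 95 and 103 CPM in set 4 and 107, 76.6 and 94.1 CPM in set 2, 2.53-fold lower than NC (log2 change -1.34, SE 0.06, adjusted p = 4.29e-18). POLE fell by 0.99 on the log2 scale (adjusted p = 2.91e-17), and its partner POLE2 at 0.13 (SE 0.09, adjusted p = 0.201) did not pass. POLD2 changed by 0.10 (SE 0.04, adjusted p = 0.0344), and by -0.09, adjusted p = 0.0403, under total-count scaling, so its sign depends on the scaling. Its call was also lost without any 1 of 5 libraries, with log2 changes of 0.07 to 0.10 and adjusted p of 0.0631 to 0.202: NC replicates 2 and 3, set 2 replicate 1 and the set 4 columns ending in 1 and 2.

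**Figure D4:**
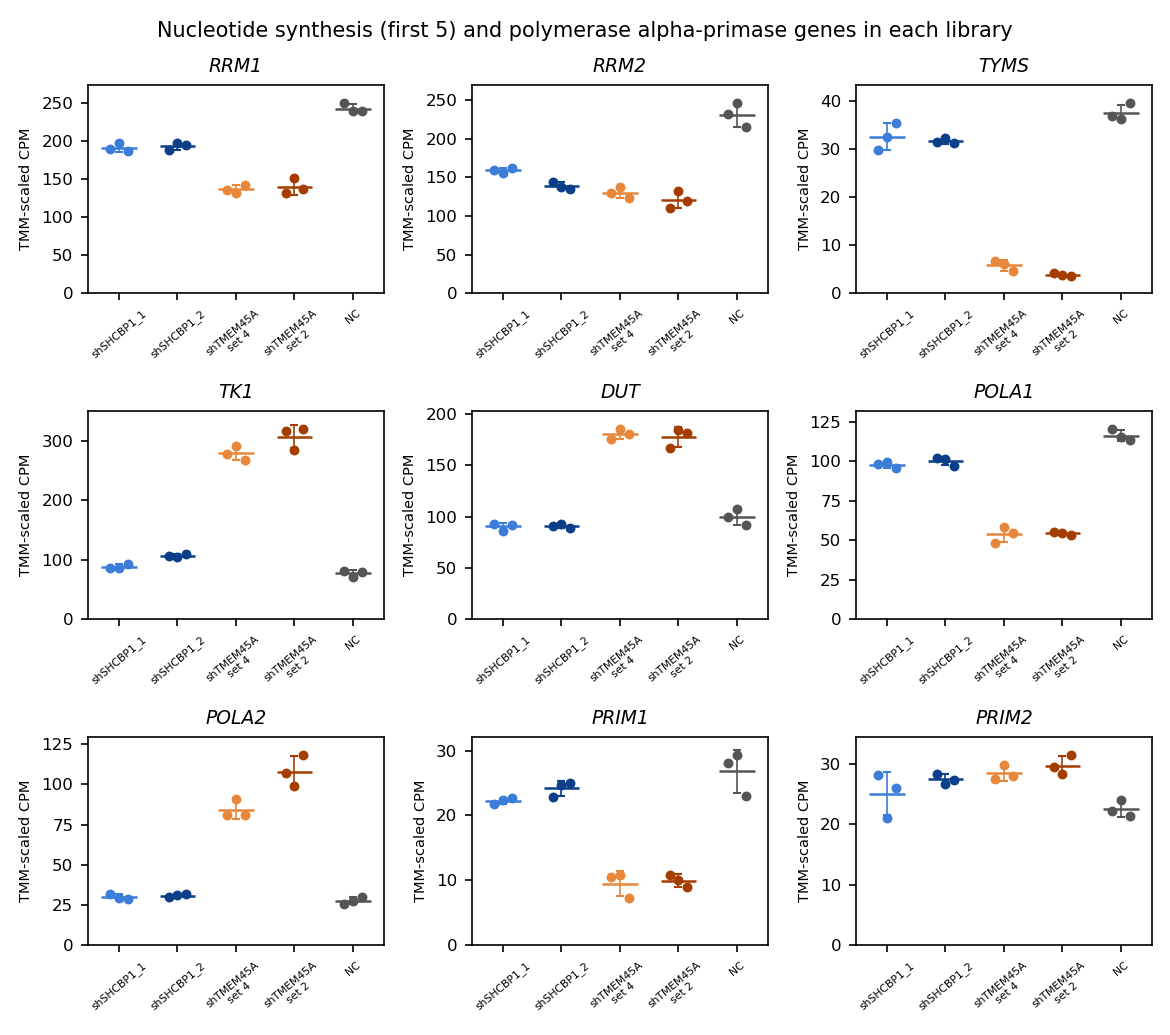
TMM-scaled CPM of the 5 deoxynucleotide synthesis genes and the 4 genes of DNA polymerase alpha and primase in each library; points are libraries, lines group means and bars SD (n = 3). In the shTMEM45A libraries TYMS lies between 3.56 and 6.59 CPM, against 36.3 to 39.4 CPM in NC, and TK1 between 269 and 320 CPM, against 71.6 to 81.6 CPM in NC.

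The clamp, loader and maturation genes changed least in the libraries labelled shSHCBP1, 1 higher and 2 lower of 9, with PCNA, the sliding clamp, at -0.02 (SE 0.04, adjusted p = 0.732). Those counts are near the 15.2% higher and 15.9% lower among all genes. UHRF1, which brings the maintenance methyltransferase to new DNA, was at 115, 108 and 104 CPM in shSHCBP1_1 and 109, 124 and 105 CPM in shSHCBP1_2, against 101, 95.4 and 97.2 CPM in NC (log2 change 0.18, SE 0.05, adjusted p = 0.0107). The call was lost without NC replicate 2 (0.16, adjusted p = 0.0657) and under RLE scaling (0.11, adjusted p = 0.129), although all 6 libraries lay above NC. Such separation from NC, above or below, held for 33.6% of all genes tested. LIG1, the ligase that joins Okazaki fragments, was at 81.6, 77.7 and 80.1 CPM and 77.8, 84.1 and 84.5 CPM, against 91.7, 90.9 and 87.8 CPM in NC (log2 change -0.15, SE 0.05, adjusted p = 0.0208). RFC3 was at 123, 123 and 128 CPM and 121, 124 and 123 CPM, against 141, 143 and 124 CPM in NC (log2 change -0.14, SE 0.05, adjusted p = 0.025), and here the groups overlapped, unlike for LIG1, where all 6 lay below NC. LIG1 no longer passed without NC replicate 1 (-0.14, adjusted p = 0.0949), NC replicate 2 (-0.15, adjusted p = 0.0754), shSHCBP1_1 replicate 2 (-0.14, adjusted p = 0.0502) or shSHCBP1_2 replicate 1 (-0.14, adjusted p = 0.0642). RFC3 was likewise lost without NC replicate 1 (-0.12, adjusted p = 0.153) or 2 (-0.10, adjusted p = 0.187), shSHCBP1_1 replicate 1 (-0.14, adjusted p = 0.0517) or 2 (-0.13, adjusted p = 0.054) and shSHCBP1_2 replicate 1 (-0.14, adjusted p = 0.0548). Under total-count scaling this role had 5 higher and 0 lower.

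All 9 genes of this role were called in the shTMEM45A libraries, 4 higher and 5 lower, which is near the 88.3% called among all genes at or above the lowest member's level and says little about the role. The clamp gene PCNA rose by 0.63 (SE 0.04, adjusted p = 2.4e-15), to 334, 336 and 339.6 CPM in set 4 and 319, 335 and 329.5 CPM in set 2, against 223, 214 and 205 CPM in NC. FEN1, the flap nuclease of Okazaki fragments, was at 169, 178 and 164 CPM in set 4 and 165, 191 and 188 CPM in set 2, against 97.2, 90.4 and 104 CPM in NC (log2 change 0.86, SE 0.05, adjusted p = 4.28e-15). Both genes were higher in every shTMEM45A library than in any NC library. Of the loader, RFC3 was at 70.2, 68.7 and 73.1 CPM and 67.2, 69.1 and 65.7 CPM, against 141, 143 and 124 CPM in NC (log2 change -0.98, SE 0.05, adjusted p = 1.03e-17). RFC1, the large subunit, was at 59.8, 50.3 and 54.7 CPM and 46.6, 42.5 and 47 CPM, against 91.1, 93.2 and 88.2 CPM in NC (log2 change -0.86, SE 0.06, adjusted p = 6.98e-15). Both loader genes were lower in every library. The shTMEM45A and NC libraries did not overlap for 67.8% of all genes tested. RFC2 and RFC4 rose by 0.59 and 0.41 while RFC5 changed by -0.27, so the loader's 5 genes spanned 1.57 log2 units. With the length trend subtracted, RFC4 stood at -0.41 and PCNA at -0.01, so the direction of both depended on it. UHRF1 changed by -0.52 (SE 0.05, adjusted p = 4.17e-10), and LIG1 by -0.26 (SE 0.05, adjusted p = 4.82e-05).

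The 3 RPA genes encode a single trimer. In the libraries labelled shSHCBP1, RPA1, the large DNA-binding subunit, was at 156, 164 and 156 CPM in shSHCBP1_1 and 143, 146 and 150.2 CPM in shSHCBP1_2, against 182, 186 and 178 CPM in NC (log2 change -0.25, SE 0.05, adjusted p = 6.23e-05). It did not pass under total-count scaling (-0.10, adjusted p = 0.0843). RPA2, the subunit phosphorylated at stalled forks, was at 118, 114 and 107 CPM and 120.2, 123 and 119.7 CPM, against 101, 105 and 98.6 CPM in NC (log2 change 0.20, SE 0.05, adjusted p = 0.000874). Neither gene overlapped between these libraries and NC, nor did 33.6% of all genes tested. RPA3 at -0.06 (SE 0.05, adjusted p = 0.389) did not pass. Among the shTMEM45A libraries RPA3, the smallest subunit, was at 156, 161 and 154 CPM in set 4 and 156, 152 and 165 CPM in set 2, against 56.1, 54.9 and 57.6 CPM in NC. It was 2.8-fold higher (log2 change 1.48, SE 0.05, adjusted p = 3.62e-21), the largest rise of the 3. With the length trend subtracted, RPA3 stood at 0.01, RPA2 at 0.07 and RPA1 at -0.31. RPA2 was at 149, 146 and 144 CPM in set 4 and 143, 153 and 145 CPM in set 2 (log2 change 0.53, SE 0.05, adjusted p = 7.86e-12). RPA1 was at 95.4, 111 and 104 CPM in set 4 and 114, 120.1 and 115 CPM in set 2 (log2 change -0.73, SE 0.05, adjusted p = 3.73e-15). The 6 shTMEM45A libraries stood above NC for RPA2 and RPA3 and below it for RPA1. They stood apart from NC for 67.8% of all genes tested.

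Deoxynucleotide synthesis held the largest fall in the libraries labelled shSHCBP1. RRM2, the small subunit of ribonucleotide reductase whose level limits the enzyme in S phase, was at 159, 156 and 162 CPM in shSHCBP1_1 and 144, 138 and 135 CPM in shSHCBP1_2, against 232, 245 and 215 CPM in NC. It was 1.55-fold lower, a log2 change of -0.63 (SE 0.05, adjusted p = 4.86e-11). RRM1, the large subunit, was at 189.7, 198 and 188 CPM and 189, 198 and 196 CPM, against 249.8, 239 and 239 CPM in NC (log2 change -0.33, SE 0.04, adjusted p = 8.41e-07). TK1, the S-phase thymidine kinase of the salvage route, rose, at 85.8, 86.8 and 93.1 CPM in shSHCBP1_1 and 106, 105 and 109.5 CPM in shSHCBP1_2, against 81.6, 71.6 and 78.8 CPM in NC (log2 change 0.33, SE 0.05, adjusted p = 1.03e-05). All 6 libraries were below NC for both reductase genes and above NC for TK1, with 4 lower and 1 higher in the role, or 2 lower and 1 higher under total counts. Of all genes, 15.9% were lower and 15.2% higher under TMM, and 33.6% did not overlap with NC. TYMS at -0.23 (SE 0.08, adjusted p = 0.0318) and DUT at -0.14 (SE 0.05, adjusted p = 0.0367) were also lower. The TYMS call was lost without any 1 of 8 of the 9 libraries, all but shSHCBP1_1 replicate 3, with changes of -0.25 to -0.18 and adjusted p of 0.0508 to 0.18. The DUT call was lost without any 1 of 5 libraries (NC replicates 1 and 2, shSHCBP1_1 replicate 2, shSHCBP1_2 replicates 1 and 3), with changes of -0.14 to -0.08 and adjusted p of 0.0617 to 0.324.

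Both reductase genes were lower in the shTMEM45A libraries too, and the genes for the 2 routes to thymidylate went in opposite directions. TYMS, thymidylate synthase of the de novo route, was at 6.59, 6.08 and 4.58 CPM in set 4 and 4.29, 3.73 and 3.56 CPM in set 2, against 36.8, 36.3 and 39.4 CPM in NC. Its level was 7.93-fold lower (log2 change -2.99, SE 0.10, adjusted p = 2.09e-22). TK1 was at 278, 292 and 269 CPM in set 4 and 317, 285 and 319.5 CPM in set 2, 3.79-fold higher than NC (log2 change 1.92, SE 0.05, adjusted p = 5.17e-24). No shTMEM45A library came near an NC library for either gene, and 67.8% of all genes tested did not overlap there. RRM2 was at 129, 138 and 123 CPM in set 4 and 110.2, 132 and 119.9 CPM in set 2 (log2 change -0.88, SE 0.05, adjusted p = 4.37e-16), and RRM1 changed by -0.81 (SE 0.04, adjusted p = 1.25e-16). DUT, the dUTPase that keeps uracil out of DNA, rose by 0.84 (SE 0.05, adjusted p = 2.04e-15). The kit does not mark strand, and TYMS overlaps the antisense genes ENOSF1 and TYMSOS, so its reads cannot be fully separated from theirs. ENOSF1 summed to 915 counts over set 4 and 1017 over set 2, against 2096 over NC, and TYMSOS to 412 over set 4 and 423 over set 2, against 192 over NC. Rows named as copies of DUT were small: DUTP1 had 0 counts in either shTMEM45A set, against 103 in NC, and DUTP2 had 3 counts over set 4 and 0 over set 2, against 111 over NC.

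Transcript length moved with the changes in the shTMEM45A libraries, and its part in the results was not tested. Of 9 complexes with at least 2 members, 7 held genes called in opposite directions there, in a comparison with 37.3% of all genes higher and 41.3% lower. For polymerase delta this rested on POLD2 at 0.10, which turned to -0.09 under total counts. In polymerase epsilon 1 of 2 genes was called, and both ribonucleotide reductase genes were lower. Lengths were taken from the mouse gene of the same symbol (GENCODE M21, longest coding transcript), a stand-in for the human one that was found for all 47 members and 12716 genes. By that measure genes in the lowest 20% of lengths had a median log2 change of 0.84 in the shTMEM45A libraries against NC and those in the highest 20% -0.65, against 0.00 and -0.02 in the libraries labelled shSHCBP1. With a smooth length trend subtracted, the spread within RPA was 0.38 in place of 2.21, within polymerase delta 0.78 in place of 1.44, and within polymerase epsilon 0.04 in place of 1.12. It was 4.61 in place of 4.71 within the MCM ring, 3.54 in place of 2.80 within GINS, 3.65 in place of 3.24 within polymerase alpha and primase, and 2.76 in place of 1.57 within RFC. It was 1.12 in place of 0.82 within the 5 subunits of the origin recognition complex and 0.57 in place of 0.07 within ribonucleotide reductase, so the spread was wider in 5 of the 9 complexes and narrower in 4. Set against the trend, MCM2 stood at -3.82, TYMS at -2.96 and POLA2 at 1.59 log2 units. In all, 9 members were more than 1 log2 unit below the trend and 4 above it, against 12.2% and 11.4% of all genes with a length. Of the 42 members called, 5 turned sign with the trend subtracted: GMNN to -0.19, RFC4 to -0.41, POLD2 to -0.46, PCNA to -0.01 and MCM6 to 0.02. The members' median was -0.34 after subtraction and -0.26 before it.

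**Figure D5:**
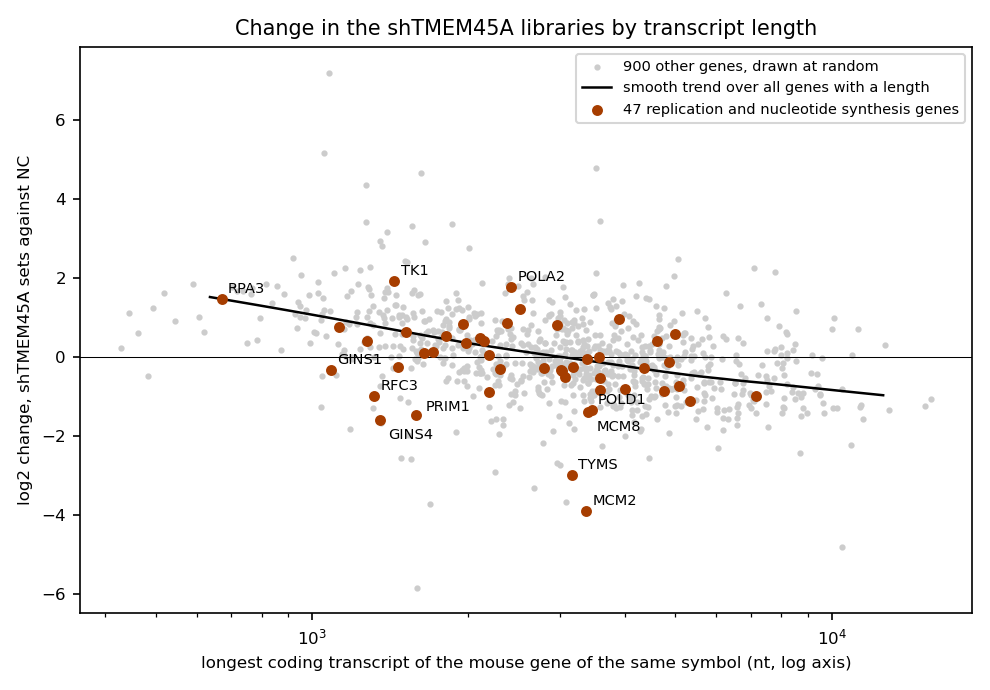
Log2 change of the 47 genes in the shTMEM45A libraries against NC plotted against transcript length on a log axis, over 900 other genes and the smooth trend of all genes with a length. RPA3, the shortest member at 670 nt, lies on the trend at 1.48, while MCM2 at 3371 nt and TYMS at 3163 nt stand at -3.82 and -2.96 from it.

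The 2 hairpins of a target were compared directly, a contrast that takes no level from NC or a second table. Its filter, scaling and spread still came from the fit of all 15 libraries. With only the 2 shSHCBP1 sets in the fit, 1674 of all genes were called between them in place of 159. With only the shTMEM45A sets, 129 were called in place of 1004. Between the sets labelled shSHCBP1_2 and shSHCBP1_1, 2 members were called higher and 0 lower, against 0.499% and 0.336% of all genes, 0.835% in either direction. MCM10 was higher in the second set by 0.31 (SE 0.07, adjusted p = 0.0311) and TK1 by 0.27 (SE 0.06, adjusted p = 0.0162). In each case all 3 libraries of the second set were above all 3 of the first, at the levels given above. The 2 sets did not overlap for 24.5% of all genes tested. The MCM10 call was lost without any 1 of the 6 libraries, with log2 changes from 0.29 to 0.33 and adjusted p from 0.111 to 0.172. The TK1 call was lost without any but shSHCBP1_1 replicate 3, with changes from 0.25 to 0.29 and adjusted p from 0.0682 to 0.141.

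Between shTMEM45A set 2 and set 4, 6 members were called, against 5.27% of all genes, with 1 higher and 5 lower, against 1.95% and 3.32%. MCM2 and GINS4, the 2 helicase genes lowest against NC, were lower still in set 2, each with a log2 change of -0.73. The values were SE 0.12 and adjusted p = 0.000328 for MCM2 and SE 0.11 and adjusted p = 4.51e-05 for GINS4. The change of TYMS was -0.58 (SE 0.16, adjusted p = 0.0254), and POLA2 was higher in set 2 by 0.36 (SE 0.07, adjusted p = 0.00207). CDT1 was at 517, 453 and 526 CPM in set 2, against 608, 601 and 553 CPM in set 4. CDT1 at -0.24 (SE 0.05, adjusted p = 0.00312) and RFC1 at -0.28 (SE 0.07, adjusted p = 0.0152) were also lower in set 2. Libraries of the 2 sets did not overlap for these 6 genes, nor for 16.2% of all genes tested. With only these 6 libraries in the fit, MCM2, GINS4 and POLA2 still passed and CDT1, RFC1 and TYMS did not. RFC1 was lost without 1 library of set 4, the column ending in 1 (-0.21, adjusted p = 0.104). TYMS was lost without set 2 replicate 2 (-0.56, adjusted p = 0.0504) or 3 (-0.53, adjusted p = 0.0709), and without the set 4 columns ending in 1 (-0.47, adjusted p = 0.132) or 2 (-0.55, adjusted p = 0.0738).

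The mean of both shTMEM45A sets was also set against the mean of both sets labelled shSHCBP1. This contrast leaves NC levels out but still crosses the tables. There 20 members were higher and 25 lower, against 35.2% and 44.1% of all genes, 79.3% in either direction. The 2 that did not pass were ORC6 (log2 change 0.04, SE 0.04, adjusted p = 0.356) and MCM5 (log2 change 0.01, SE 0.03, adjusted p = 0.841). CDT1 was higher in the shTMEM45A libraries by 0.48 (SE 0.03, adjusted p = 7.3e-14) and MCM10 lower, with a change of -0.50 (SE 0.05, adjusted p = 6.42e-10). In the libraries labelled shSHCBP1 these 2 had moved most of the genes listed under licensing and early assembly. RRM2 differed by -0.25 (SE 0.04, adjusted p = 6.37e-06) and TK1 by 1.59 (SE 0.04, adjusted p = 2.27e-25). For ORC5, CDC6, PRIM2, POLE2 and RPA2, higher here under TMM, total-count scaling turned the sign. With the length trend subtracted, 11 of the 45 calls turned sign, among them ORC5, PRIM2, POLE2 and RPA2 again.

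Other genes of the same pathways gave a mixed picture. Among 11 further licensing and firing genes, 1 was higher and 4 lower in the libraries labelled shSHCBP1 and 2 were higher and 8 lower in the shTMEM45A libraries, against NC. DBF4, the activator of the kinase CDC7, rose in both, by 0.60 (SE 0.08, adjusted p = 3.65e-07) and 1.09 (SE 0.08, adjusted p = 5e-14), and RECQL4, of a helicase family, rose by 0.39 (SE 0.05, adjusted p = 1.71e-07) in the shTMEM45A libraries. MTBP, a partner of the firing factor TICRR, changed by -0.31 (SE 0.08, adjusted p = 0.00445) in the libraries labelled shSHCBP1, where TICRR changed by -0.23 (SE 0.05, adjusted p = 0.000989). It changed by -1.81 (SE 0.09, adjusted p = 1.24e-17) in the shTMEM45A libraries, where the checkpoint scaffold TOPBP1 changed by -1.22 (SE 0.05, adjusted p = 9.4e-20). Under total counts the libraries labelled shSHCBP1 had 3 higher and 0 lower of these 11, and the shTMEM45A libraries 2 higher and 9 lower.

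Of 24 further fork, polymerase and chromatin assembly genes, 7 were higher and 10 lower in the libraries labelled shSHCBP1 (10 and 5 under total counts) and 8 higher and 13 lower in the shTMEM45A libraries. The shares of all genes higher and lower were 15.2% and 15.9% in the former and 37.3% and 41.3% in the latter. The histone chaperone genes ASF1A and ASF1B rose by 0.97 (SE 0.12, adjusted p = 1.67e-07) and 0.72 (SE 0.06, adjusted p = 9.89e-11) in the libraries labelled shSHCBP1, while the nuclease gene EXO1 changed by -0.34 (SE 0.05, adjusted p = 4.44e-06) and SSRP1, of the FACT complex, by -0.31 (SE 0.04, adjusted p = 1.82e-07). In the shTMEM45A libraries ASF1A rose by 2.09 (SE 0.11, adjusted p = 1.12e-16) and POLE4, a small accessory subunit of polymerase epsilon, by 1.55 (SE 0.06, adjusted p = 1.02e-19), and CLSPN, the fork checkpoint mediator claspin, changed by -3.17 (SE 0.09, adjusted p = 1.3e-23) and RTEL1, a DNA helicase gene, by -2.34 (SE 0.27, adjusted p = 4.03e-09).

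Of 24 further nucleotide metabolism genes, 2 were higher and 14 lower in the libraries labelled shSHCBP1, or 6 and 6 under total counts, and 5 were higher and 14 lower in the shTMEM45A libraries. All genes tested gave 15.2% higher and 15.9% lower in the former and 37.3% and 41.3% in the latter. The mitochondrial folate enzymes MTHFD2 and SHMT2 changed by -0.63 (SE 0.05, adjusted p = 6.2e-12) and -0.58 (SE 0.04, adjusted p = 2.38e-13) in the libraries labelled shSHCBP1, where the uridylate synthase gene UMPS rose by 0.65 (SE 0.09, adjusted p = 1.23e-06) and RRM2B, another reductase small subunit, by 0.27 (SE 0.10, adjusted p = 0.0447). With the shTMEM45A hairpins CAD, the first enzyme of pyrimidine synthesis, changed by -1.78 (SE 0.05, adjusted p = 3.47e-24) and UMPS, the last of that route, by 1.59 (SE 0.09, adjusted p = 1.24e-16). NME1 rose by 1.86 (SE 0.05, adjusted p = 1.45e-24) and its near-identical neighbour NME2 changed by -1.19 (SE 0.18, adjusted p = 4.42e-07), and reads may be split between these copies, so both are uncertain.

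The E2F and G1/S control genes were 6 higher and 3 lower of 18 in the libraries labelled shSHCBP1, where RLE gave 2 higher with 4 lower and total counts 11 with 0. E2F3 rose by 0.55 (SE 0.08, adjusted p = 6.48e-06) and E2F5 by 0.32 (SE 0.10, adjusted p = 0.0102), whereas the cyclin gene CCNE2 changed by -0.45 (SE 0.15, adjusted p = 0.019) and RBL2, a pocket protein that represses E2F targets, by -0.30 (SE 0.06, adjusted p = 0.000472). The shTMEM45A libraries had 9 higher and 7 lower, or 6 and 8 under total counts, with E2F1 at 0.75 (SE 0.06, adjusted p = 2.48e-12), E2F6 at 0.56 (SE 0.09, adjusted p = 1.55e-06), RBL2 at -3.79 (SE 0.08, adjusted p = 5.07e-27) and CCNE2 at -2.72 (SE 0.17, adjusted p = 4.34e-15). Of all genes tested, 37.3% were higher and 41.3% lower in the shTMEM45A libraries, and 15.2% and 15.9% in those labelled shSHCBP1. Mitotic genes were 9 higher and 1 lower of 15 in the libraries labelled shSHCBP1, where RLE gave 5 higher with 4 lower and total counts 11 with 0. There the kinetochore gene CENPF rose by 0.54 (SE 0.05, adjusted p = 4.65e-10) and the proliferation marker MKI67 by 0.49 (SE 0.04, adjusted p = 7.1e-10), while CDK1, the mitotic kinase, changed by -0.28 (SE 0.05, adjusted p = 0.000138). They were 6 higher and 8 lower in the shTMEM45A libraries, with the cyclin gene CCNB2 at 0.67 (SE 0.05, adjusted p = 1.98e-13), the anaphase activator gene CDC20 at 0.66 (SE 0.04, adjusted p = 4.66e-16), the spindle checkpoint genes BUB1B at -1.45 (SE 0.06, adjusted p = 2.76e-19) and BUB1 at -1.03 (SE 0.05, adjusted p = 5.49e-18).

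As a share of all counts, the 47 members together took 0.679% to 0.69% in shSHCBP1_1, 0.702% to 0.715% in shSHCBP1_2, 0.595% to 0.598% in set 4 and 0.583% to 0.594% in set 2, against 0.7% to 0.704% in NC. On the TMM scale used for the levels, the members summed to 6103 to 6168 CPM in shSHCBP1_1, 6210 to 6314 CPM in shSHCBP1_2, 6694 to 6793 CPM in set 4 and 6513 to 6755 CPM in set 2, against 6908 to 7003 CPM in NC. The shTMEM45A libraries thus lay lowest by share of counts and the libraries labelled shSHCBP1 lowest by scaled sum, so the order depends on the scaling.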

How the data were processed

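Gene counts of 15 messenger RNA libraries were used. The authors deposited 2 tables of raw counts, whole reads per gene symbol with no normalization, per the file headers and values. Per the labels' protocols, poly-A RNA was selected and copied with a kit that does not mark strand. Which aligner and counter they ran is not given in the sources used here. Per the submitters' processing notes the build was mm10, of the mouse, whereas the symbols are human, so no coordinates or sequences were used. Left out were 200 names on more than 1 row or turned into dates (1768 of 58735 rows), and 0 columns lacked a group.

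All 15 libraries entered 1 fit of group means in edgeR 4.0.16 under R 4.3.3 (filterByExpr, count minimum 10, total minimum 15; TMM; quasi-likelihood F test; Benjamini-Hochberg over 19051 genes; threshold 0.05). The SE is the size of the change over the square root of F. Members with values per library are, in each role, up to 3 with the largest called change per target and between sets of a target; MCM7 and PCNA were added after their values were seen. Up to 2 rises and 2 falls are named per further list. Members, lists and rule were chosen with earlier results of these data known. The fit was tested on simulated data. Alternatives were RLE and total-count scaling, other filters, DESeq2 1.42.0, fits of fewer groups, a replicate block, a length trend (loess, span 0.5) and leaving out each library. No replicate pair agreed within sampling noise (chi-square per degree of freedom from 1.74 to 9.15). It was 3.65 to 9.15 for pairs of shTMEM45A libraries and 1.74 to 2.99 for the other pairs. The 1 fit shares its estimate of spread over these unlike groups. The floor of 3 counts covers counting error only.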

Additional observations from a re-analysis of the deposited data

How the results depend on the processing

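Counts of members called against NC, or between shTMEM45A and shSHCBP1, moved by at most 1.5 times under every alternative run. Between shSHCBP1_2 and shSHCBP1_1 the 2 calls became 6 with DESeq2, 13 with only those 6 libraries in the fit, 7 with NC and both shSHCBP1 groups in the fit (chosen after seeing the data) and also 7 with the replicate block in that fit, and 0 to 1 with a library left out; between shTMEM45A set 2 and set 4 the 6 calls became 3 with only those libraries, and 4 to 7 with a library left out. Over all genes, fits of only the groups compared called 5708 in shSHCBP1_1 against NC in place of 3787, 1674 between the shSHCBP1 sets in place of 159 and 129 between the shTMEM45A sets in place of 1004, and DESeq2 called 433 between the shSHCBP1 sets; the cause was not tested. The replicate block over NC and both shSHCBP1 groups gave 27, 29 and 28 members in shSHCBP1_1, shSHCBP1_2 and their mean, against 26, 29 and 28 in the same fit without it, and the block for set 2 gave 42. Same-numbered libraries of NC, both shSHCBP1 groups and set 2 did not deviate together (correlations from -0.035 to 0.038). Whether they share more than a number is not labelled, and these correlations cannot settle it. No block could be run for set 4, whose columns are not tied to labelled libraries. Total-count scaling turned the sign of 13 of 249 member calls: against NC, GINS2 and RFC3 (both 0.01) in shSHCBP1_2, MCM7 (0.04), RFC3 (0.01) and DUT (0.01) by the mean of both shSHCBP1 sets, CDT1 (-0.02) and POLD2 (-0.07) in set 4 and POLD2 (-0.09) by the mean of both shTMEM45A sets; between shTMEM45A and shSHCBP1, ORC5 (-0.12), CDC6 (-0.01), PRIM2 (-0.20), POLE2 (-0.03) and RPA2 (-0.02). Subtracting the length trend turned 5 of 42 calls by the mean of both shTMEM45A sets (GMNN, RFC4, POLD2, PCNA, MCM6), 7 of 44 in set 4, 5 of 42 in set 2 and 11 of 45 against the libraries labelled shSHCBP1. No other scaling, filter, test or left-out library turned a member call, and 141 of 1965 were lost when a library was left out. At this depth every member had counts far above the floor.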
